A study of Mus musculus with 12 samples.

Results

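Larp7 is a single gene among the 27998 genes of the single-cell feature list and the 40814 genes of the neurosphere count table, and it was found by its symbol in the former and by its Entrez identifier, 28036, in the latter. Its RNA level was followed in the dentate gyrus of P7 mice and in neurospheres, to see in which cells it was lower in mice that carry floxed Larp7 and a Cre driver. The P7 data are 3 single-cell libraries, 1 each from wild-type, Larp7f/f;nestin-Cre and Larp7f/f;Emx1-Cre mice, and each library holds 3 to 4 dentate gyri of littermates combined. The neurospheres, cultures of neural stem and progenitor cells grown from newborn dentate gyrus, gave bulk RNA at day 2 of differentiation from 2 wild-type and 3 Larp7 knockout cultures, the latter of the genotype Larp7f/f;Emx1-Cre. The animals called wild-type in the study were floxed mice, so that the floxed alleles are shared by all groups and the Cre driver is what differs. The nestin-Cre driver is a transgene that acts in the developing central nervous system, whereas Emx1-Cre is a knock-in at the Emx1 locus that acts in neural stem and progenitor cells of the dorsal forebrain.

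Larp7 encodes a La-related protein that binds the 3′ end of 7SK, a small nuclear RNA, and keeps it stable. In the 7SK particle, HEXIM1 and HEXIM2 hold the kinase P-TEFb (CDK9 with cyclin T1 or T2) in an inactive state, and MEPCE caps the RNA. Inactivating variants of human LARP7 cause Alazami syndrome, a disorder with short stature and impaired cognition. In the developing dentate gyrus, the stem cells, called radial glia-like (RGL) cells or RGLs, divide into neuronal intermediate progenitor cells (nIPCs), which become neuroblasts and then granule neurons. Inhibitory interneurons reach the dentate gyrus from the ventral forebrain, microglia derive from the yolk sac, and vessels come from mesoderm and neural crest.

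The mouse gene lies on the minus strand at chr3:127536714-127553349 (GRCm38.p6, the assembly that corresponds to mm10), and the RefSeq transcript NM_138593.2 has 13 exons, with the start codon in exon 2 and the stop codon in exon 13. The loxP sites lie in the introns on both sides of exon 9, which spans chr3:127544154-127544278 and is wholly coding. Exon 9 is shown because it is the stretch that Cre removes. It is printed 5′ to 3′ on the minus strand from the reference genome, with the last and first 2 bases of the flanking introns, the splice acceptor and donor, in capitals.
Exon 9 (chr3:127544152-127544280): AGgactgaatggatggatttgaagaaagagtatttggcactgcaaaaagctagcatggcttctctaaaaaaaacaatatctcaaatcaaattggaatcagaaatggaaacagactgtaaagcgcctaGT

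The exon is 125 bases long, which leaves a remainder of 2 when divided by 3. Joining exon 8 to exon 10 in the reference transcript kept 376 of the 570 codons (66.0%), followed by 54 codons in another frame and a stop in exon 11, with 122 bases of that exon and 2 exon junctions after it. These values were read from the reference sequence and were not measured in the mice. The joins and the stop are shown because they are what sets the deleted transcript apart from the intact one. The capitals mark the first 15 bases of the downstream exon in the joins and the stop codon in the last line.
Exon 8 joined to exon 9: gagagtgctgtccaaGACTGAATGGATGGA
Exon 8 joined to exon 10: gagagtgctgtccaaCAGCAGGCAGTGGTC
First stop of the shifted frame, in exon 11 (chr3:127540909-127540935): agttgtttacatTGAtttgctagaagg

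**Figure D1:**
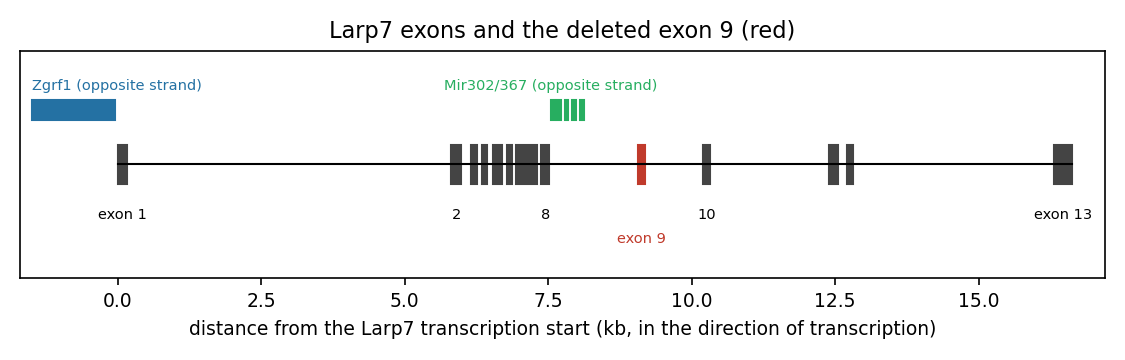
Larp7 exons (boxes, exon 9 in red) by distance in kb from its transcription start along the direction of transcription, with genes of the opposite strand drawn above. Exon 9 lies between an intron of 1547 bases, which holds the Mir302 and Mir367 genes, and an intron of 997 bases.

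The end of exon 9 lies 698 bases before the end of the transcript. The single-cell libraries count tags near the 3′ end, and the bulk data give a single count for each gene, so neither measure looks at exon 9 alone. A Larp7 UMI (unique molecular identifier, 1 per captured molecule) in these libraries does not tell a deleted transcript from an intact one, and a value above 0 in a mutant library is no measure of cells that escaped recombination.

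The P7 libraries held 12876 wild-type, 7177 nestin-Cre and 6821 Emx1-Cre barcodes, of which 10997, 6685 and 6531 passed the filter (over 500 genes, mitochondrial share of UMIs under 15%). Cells of the wild-type library were shallower, with a median of 1782 UMIs against 3644 and 3873. Between 11 and 23 barcodes were shared by any pair of libraries. The genotype entries of the labels name Emx1-Cre for the library titled nestin and nestin-Cre for the library titled Emx1. The titles were followed, because the number of nestin-Cre cells that the methods state for P7 is larger than the 6821 barcodes of the library titled Emx1, and the numbers stated for both drivers fall just below the barcodes of the libraries so titled. Emx1 RNA, from the locus that carries the Emx1-Cre knock-in, stood at 222 CPM (UMIs of the gene scaled to 1000000 UMIs in all) in wild-type dorsal-lineage cells, 229 CPM in the library titled nestin and 132 CPM in the library titled Emx1. Nes was at 43.8, 40.4 and 46.0 CPM in the same cells.

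Across all cells that passed, the wild-type library had 1585 Larp7 UMIs, the nestin-Cre library 329 and the Emx1-Cre library 413. Cells were assigned to 14 gates by the number of UMIs from lists of marker genes, and Larp7 was not used for any of them. A cell that passed the lists of more than 1 lineage was left out of the gates. With 1 library per genotype there is no replicate check and no test was made. Intervals are 95% intervals, exact Poisson for a level and exact conditional binomial for a ratio, and cover counting error only.

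In the dorsal lineage, which joins RGLs, nIPCs, neuroblasts and granule neurons, Larp7 stood at 66.1 CPM in the wild-type library (61.6 to 70.9, 781 UMIs in 3169 cells). It was 11.0 CPM in the Larp7f/f;nestin-Cre library (9.45 to 12.8, 174 UMIs in 3745 cells) and 12.8 CPM in the Larp7f/f;Emx1-Cre library (11.2 to 14.6, 220 UMIs in 3868 cells). The level was thus 16.7% of wild-type with nestin-Cre (14.1 to 19.7%) and 19.4% with Emx1-Cre (16.6 to 22.5%). Between the mutant libraries the ratio of nestin-Cre to Emx1-Cre was 0.862, with an interval from 0.702 to 1.06 that includes equal levels. Microglial markers were scarce in these cells, but the same markers had been used to set the gates. The 10 microglial markers reached 0.217% and 0.143% of their microglial level in the dorsal lineage of the nestin-Cre and Emx1-Cre libraries. Scaled to the Larp7 level of microglia, these shares came to 0.0859 and 0.0645 CPM. Cells that also passed the microglial list had been left out, which holds the shares down in advance. They are therefore no independent check of the gate.

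The lower Larp7 level held in each dorsal cell type with enough UMIs. In RGLs, the stem cells of the lineage marked by genes such as Hopx and Tfap2c, Larp7 was 53.5 CPM in wild-type, 12.4 CPM with nestin-Cre and 9.73 CPM with Emx1-Cre. In nIPCs, marked by Eomes and Neurod4, it was 84.9, 13.5 and 16.2 CPM in the same order. In neuroblasts, marked by Igfbpl1 and Neurod2, it was 55.4, 9.65 and 11.1 CPM. The mutant levels ranged from 15.9% of wild-type (nestin-Cre nIPCs, 11.8 to 21.0%) to 23.2% (nestin-Cre RGLs, 15 to 35%), and the intervals of the 6 ratios overlapped. Only 4 wild-type cells passed the granule neuron list, against 44 and 23 in the mutant libraries, with 1, 0 and 1 Larp7 UMIs, so that no difference in granule neurons was detectable at this depth.

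**Figure D2:**
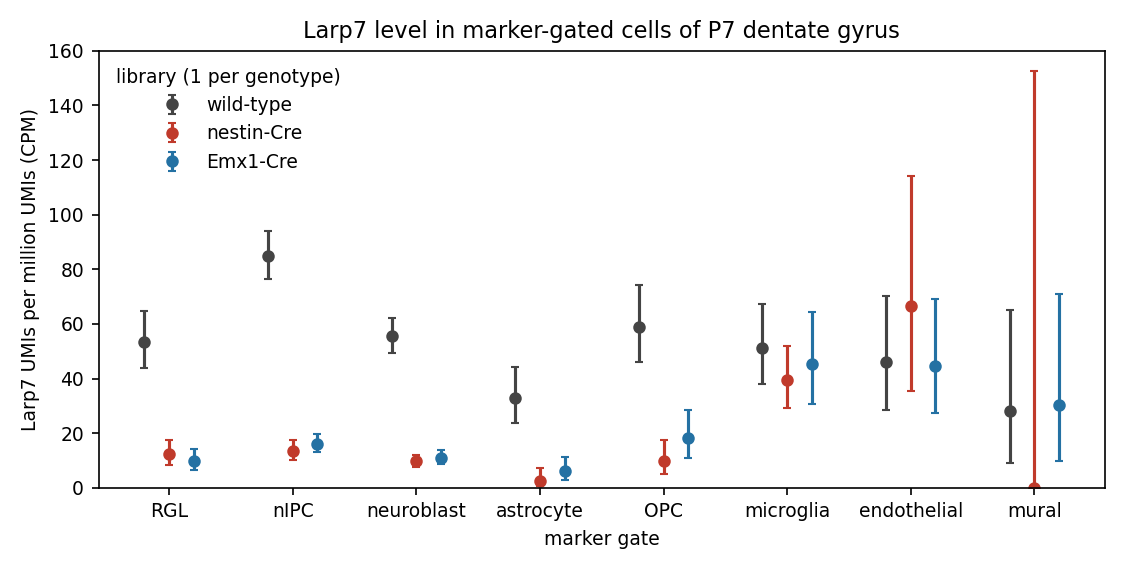
Larp7 level (CPM) by marker gate in the wild-type (grey), nestin-Cre (red) and Emx1-Cre (blue) libraries, 1 library each, with bars for the exact Poisson 95% interval. In RGLs, nIPCs, neuroblasts, astrocytes and OPCs the mutant points lie below the wild-type interval, whereas in microglia and endothelial cells the intervals of the 3 libraries overlap.

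Macroglia had low Larp7 in both mutant libraries as well. Astrocytes, which support synapses and take up transmitter, had 32.8 CPM in wild-type (42 UMIs), 2.46 CPM with nestin-Cre (3 UMIs) and 6.12 CPM with Emx1-Cre (10 UMIs), or 7.51% (1.49 to 23.5%) and 18.7% (8.35 to 37.8%) of wild-type. Oligodendrocyte precursor cells (OPCs), the source of myelinating cells, had 58.9 CPM in wild-type (70 UMIs), 9.87 CPM with nestin-Cre (11 UMIs) and 18.3 CPM with Emx1-Cre (19 UMIs), which is 16.8% (8.00 to 31.9%) and 31.0% (17.7 to 52.1%) of wild-type. The ratio of nestin-Cre to Emx1-Cre was 0.540 in OPCs (0.232 to 1.19) and 0.402 in astrocytes (0.0711 to 1.56). Both intervals include equal levels. A difference between the drivers in macroglia was therefore not detectable with these counts.

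Microglia, the resident macrophages of the brain, had overlapping Larp7 intervals in the 3 libraries when they were gated. Larp7 was 51.3 CPM in wild-type microglia (38.2 to 67.4, 51 UMIs in 396 cells), 39.5 CPM with nestin-Cre (29.3 to 52.1, 50 UMIs in 396 cells) and 45.2 CPM with Emx1-Cre (30.7 to 64.2, 31 UMIs in 209 cells). The ratios to wild-type were 0.770 (0.511 to 1.16) and 0.882 (0.545 to 1.40), and both intervals include equal levels. When microglia were taken from Leiden clusters, the wild-type level was 63.2 CPM (105 UMIs in 609 cells), against 35.4 CPM (57 UMIs) and 37.8 CPM (36 UMIs), and the log2 ratios of -0.84 (-1.33 to -0.36) and -0.74 (-1.33 to -0.18) no longer included 0. Of those wild-type cluster cells, 250 did not pass the microglia gate, and they held Larp7 at 75.8 CPM and the 27 markers of the dorsal lineage at 3089 CPM. The 359 that did pass held them at 53.1 and 694 CPM. Of the 250, the 136 in no gate held Larp7 at 110 CPM (68.3 to 169) and the dorsal markers at 2616 CPM. The 76 that passed lists of several lineages held them at 71.2 and 2902 CPM. The part of this dorsal RNA in the higher cluster level was not tested. In the gated microglia, the dorsal markers were at 15.2% of their dorsal-lineage level in wild-type, 7.45% with nestin-Cre and 6.95% with Emx1-Cre. Scaled to the Larp7 level of the dorsal lineage, these shares came to 10.0, 0.822 and 0.890 CPM, and their part in the microglial ratios was not tested.

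Vessels and the other cells of non-neural origin were sampled thinly. In endothelial cells, which line the vessels, Larp7 was 46.0 CPM in wild-type (21 UMIs), 66.7 CPM with nestin-Cre (13 UMIs) and 44.8 CPM with Emx1-Cre (20 UMIs). The dorsal markers were at 14.3%, 7.36% and 19.1% of their dorsal-lineage level in the endothelial cells of the 3 libraries, which scaled to 9.44, 0.811 and 2.44 CPM of Larp7, and their part in the vessel values was not tested. Mural cells, which wrap the vessels, had 5, 0 and 5 Larp7 UMIs. The 0 in the nestin-Cre library came from 9 cells, which allows a level of up to 124 CPM by 3 counts and 153 CPM by the exact Poisson interval. Vessel cells together had 40.9 CPM in wild-type, 59.3 CPM with nestin-Cre (ratio 1.45, 0.683 to 2.92) and 40.9 CPM with Emx1-Cre (ratio 0.999, 0.554 to 1.80). A Leiden cluster of endothelial cells held 0 wild-type, 0 nestin-Cre and 116 Emx1-Cre cells. Its overlap with the endothelial gate, and its part in the Emx1-Cre vessel ratio, were not tested. Perivascular macrophages had 1, 2 and 2 UMIs and leptomeningeal cells 5, 0 and 1. Taking microglia, perivascular macrophages, endothelial, mural and leptomeningeal cells as 1 group, Larp7 was 47.8 CPM in wild-type (83 UMIs), 40.7 CPM with nestin-Cre (65 UMIs) and 43.3 CPM with Emx1-Cre (59 UMIs). These were 85.0% (60.5 to 119%) and 90.5% (63.7 to 128%) of wild-type, and both intervals lie above those of the dorsal lineage.

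By the marker gates, the order of the dorsal lineage and the non-neural cells inside a library was opposite in the wild-type and the mutant libraries. In the wild-type library the dorsal lineage had 138% of the Larp7 level of the non-neural cells (110 to 176%). In the Larp7f/f;nestin-Cre library it had 27.1% (20.3 to 36.6%), and in the Larp7f/f;Emx1-Cre library 29.6% (22.1 to 40.1%). The wild-type order was less certain. Against microglia or endothelial cells alone, the wild-type ratio was 1.29 (0.970 to 1.75) and 1.44 (0.933 to 2.33), and both intervals include equal levels. By Leiden clusters, wild-type Larp7 was 60.9 CPM in the dorsal lineage, 63.2 CPM in microglia and 52.4 CPM in endothelial cells. The wild-type order thus depended on the grouping and on the non-neural cells compared.

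**Figure D3:**
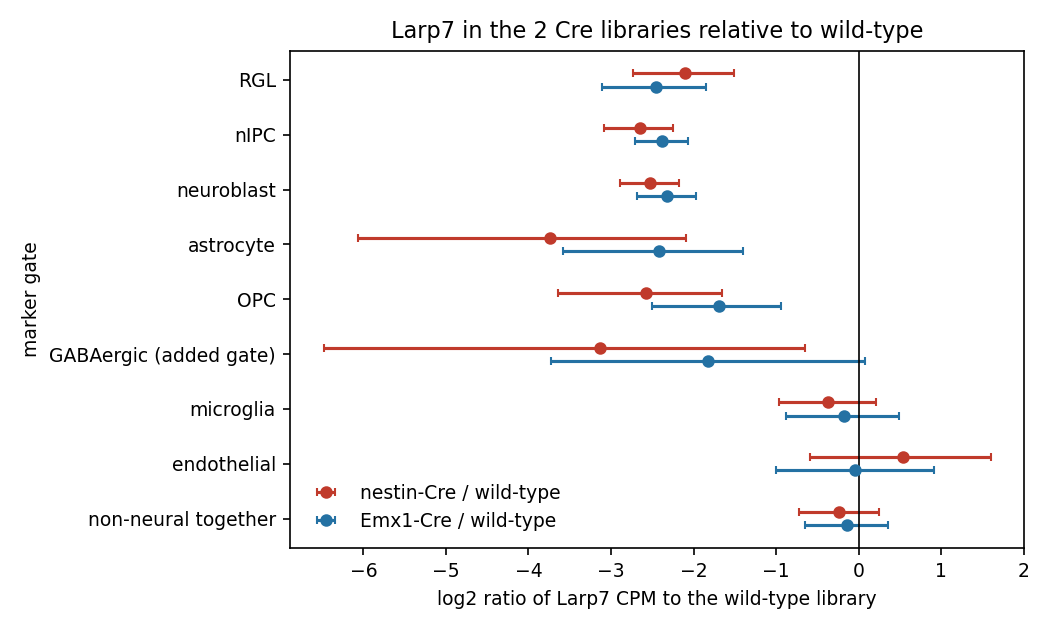
log2 ratio of the Larp7 level (CPM) in the nestin-Cre (red) and Emx1-Cre (blue) libraries to the wild-type library by gate, with exact conditional binomial 95% intervals. The 6 neural gates lie at -1.69 or below, where the Emx1-Cre interval of the GABAergic gate reaches past 0, and the intervals of microglia, endothelial cells and the non-neural cells together include 0. The GABAergic gate kept cells of other gates and also held UMIs of the nIPC marker Eomes.

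Interneurons, where the drivers would be set apart by the ventral origin of the cells, were too few to compare. Cells with at least 1 UMI of Gad1 or Gad2, the enzymes that make GABA, and no other lineage numbered 24, 23 and 18, with 3, 0 and 2 Larp7 UMIs. The level was 58.9 CPM in wild-type (12.2 to 172) and 38.0 CPM with Emx1-Cre (4.60 to 137). With nestin-Cre it was 0 CPM (0 to 50.3), or at most 40.9 CPM by the 3 counts that a count of 0 allows. The gate was not clean either, since its wild-type and Emx1-Cre cells held 61 and 44 UMIs of the astrocyte gene Gfap, against 4 in the nestin-Cre cells. A wider list of 10 GABAergic genes, chosen after the data were examined and with cells of other gates kept, gave 11, 36 and 43 cells. In those, Larp7 was 96.4 CPM in wild-type (6 UMIs), 10.9 CPM with nestin-Cre (2 UMIs, ratio 0.114, 0.0112 to 0.635) and 27.2 CPM with Emx1-Cre (6 UMIs, ratio 0.282, 0.0754 to 1.05). The wild-type cells of this gate had 44 Dlx1 and 29 Dlx2 UMIs, both transcription factors of GABAergic precursors, but 0 of Gad1 and 2 of Gad2. This gate was not clean either, since its wild-type, nestin-Cre and Emx1-Cre cells held 4, 27 and 20 UMIs of the nIPC marker Eomes. The part of dorsal-lineage RNA in its Larp7 ratios was not tested. Whether either driver spares interneurons was not detectable at this depth.

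Among the wild-type cells, nIPCs had the highest Larp7 level of the gates with more than 20 Larp7 UMIs, at 1.59 times that of RGLs (1.27 to 1.99) and 1.53 times that of neuroblasts (1.31 to 1.79). OPCs, neuroblasts, RGLs, microglia and endothelial cells followed, at 58.9, 55.4, 53.5, 51.3 and 46.0 CPM, and neighbours in this order did not differ beyond their counting intervals. Astrocytes were lowest, with nIPCs at 2.59 times their level (1.88 to 3.65). By Leiden clusters, wild-type nIPCs were at 80.1 CPM and astrocytes at 25.6 CPM. Between them lay microglia at 63.2, endothelial cells at 52.4, neuroblasts at 47.3, OPCs at 42.7 and RGLs at 34.4 CPM. The order between nIPCs and astrocytes, and the size of the ratio of nIPCs to RGLs, thus depended on the grouping. In the Emx1-Cre library nIPCs again exceeded RGLs, by a ratio of 1.67 (1.09 to 2.63), and in the nestin-Cre library the ratio was 1.08 (0.690 to 1.74). Of the single gates with more than 20 Larp7 UMIs in the mutant libraries, which were RGLs, nIPCs, neuroblasts and microglia, microglia had the highest level in both.

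The cells outside the gates were also accounted for. Those that passed no list numbered 5937, 1325 and 979, and held 464, 38 and 31 Larp7 UMIs, or 56.0, 11.6 and 12.4 CPM. Cells that passed lists of several lineages numbered 552, 478 and 636 and held 42.9, 12.3 and 16.1 CPM. Barcodes that failed the filter had 51.8, 12.3 and 16.3 CPM. All of these levels lay within the range of the neural gates of their own library, which does not tell the type of the cells.

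To place Larp7 among other genes, the ratio to wild-type in the dorsal lineage was computed for each gene with at least 100 UMIs over the pair of libraries. In the nestin-Cre library 0.901% of 11093 genes were at least 2-fold lower than in wild-type, and only the globin genes Hbb-bt, Hbb-bs, Hba-a1 and Hba-a2 had a lower ratio than Larp7. In the Emx1-Cre library 0.314% of 11132 genes were at least 2-fold lower, and Larp7 had the lowest ratio of all. Taken by cell type, Larp7 was also lowest in Emx1-Cre neuroblasts, but the same 4 globin genes lay below it in Emx1-Cre RGLs and nIPCs. The globin RNA, which marks red blood cells, summed to 839 CPM in wild-type dorsal-lineage cells, 43.8 CPM with nestin-Cre and 360 CPM with Emx1-Cre. In microglia, 451 of 3431 genes had a lower ratio than Larp7 with nestin-Cre and 623 of 2641 with Emx1-Cre, where Larp7 itself had under 100 UMIs. At least 2-fold lower were 2.16% and 1.89% of these genes.

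Genes whose level ran most like that of Larp7 were sought across 21 profiles (8 gates in up to 3 libraries) of at least 200000 UMIs. The closest of 7223 genes was Gnb2, a G protein subunit, with Pearson's r = 0.86 of log2(CPM + 10), followed by Taf10, a subunit of TFIID, with r = 0.85, Sh3gl1 with r = 0.82, and Tsta3 and Sec61b with r = 0.80 each. The profiles share libraries and differ in depth, and the correlation is a description. In nIPCs, Gnb2 was at 661 CPM in wild-type, 521 CPM with nestin-Cre and 559 CPM with Emx1-Cre, a far smaller difference than that of Larp7.

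The neurosphere libraries, with 59821311 to 62474602 counts each, had replicates and allowed a test. Larp7 counts were 2575 and 2108 in the wild-type cultures and 248, 392 and 276 in the Larp7 knockout cultures. After TMM normalization these were 42.8 and 35.0 CPM against 4.17, 6.35 and 4.39 CPM, or 38.9 ± 5.51 CPM (SD, n = 2) and 4.97 ± 1.20 CPM (SD, n = 3). Every knockout library lay below both wild-type libraries, and the mean was 12.8% of wild-type. The log2 fold change was -2.97 (SE 0.21), with an adjusted p of 0.0198 by edgeR's quasi-likelihood test with Benjamini-Hochberg adjustment over 17753 genes. Leaving out knockout replicate 1 or 3 raised the adjusted p to 0.148 and 0.195, at log2 fold changes of -2.85 and -2.88. The labels do not say that the cultures came from separate animals, so the p-value measures the spread between these libraries.

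**Figure D4:**
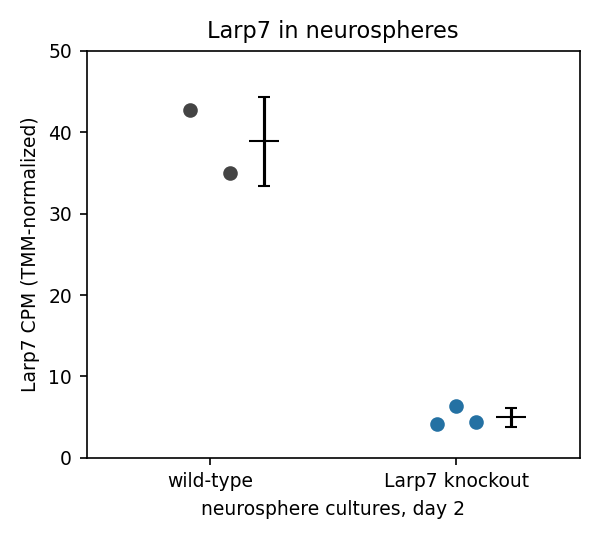
Larp7 level (CPM after TMM normalization) in each neurosphere library (points) with the mean and SD of each group (bars). The 2 wild-type libraries lie at 35.0 and 42.8 CPM, above the 3 knockout libraries at 4.17 to 6.35 CPM.

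Few genes passed this test, and Larp7 was among them. By edgeR, 0.0338% of the genes had an adjusted p under 0.05 in either direction, and 21.7% had an unadjusted p under 0.05. This count of 6 genes was not stable, since it was 1591 with DESeq2, 1 by edgeR without knockout replicate 1 and 0 without knockout replicate 3. Genes that were lower in the knockout cultures at an adjusted p under 0.05 by edgeR made up 0.0169% of the 17753 tested, which is 3 genes, and all 3 had no overlap between the groups. Scd4, a stearoyl-CoA desaturase, had the largest of these falls with a log2 fold change of -3.11 (SE 0.26), Larp7 came next, and H2-Ke6, an enzyme of mitochondrial fatty acid synthesis, fell by 1.09 (SE 0.08) on the log2 scale. Over all genes tested, 19 had a lower log2 fold change than Larp7. The 3 genes that were higher were Gm38733, Rlbp1 and Moxd1, which are named after their values were seen. Markers of other cell types were low. The 10 microglial markers summed to 20.0 and 25.5 CPM in wild-type and 19.6 to 23.0 CPM in knockout cultures, the 9 endothelial markers to 2.76 and 3.00 against 3.24 to 3.75 CPM, and 5 markers of neural progenitors such as Nes and Sox2 to 3828 and 3911 against 3700 to 4135 CPM. The 7 interneuron markers were at 15.1 and 40.7 CPM in wild-type and 8.86 to 9.91 CPM in knockout cultures, and their part in the Larp7 value was not tested. In bulk RNA, fewer cells of a type and less RNA per cell cannot be told apart.

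Genes beside Larp7 were read as a check of the locus. Zgrf1, a helicase gene, starts 47 bases away on the opposite strand, and the 46 bases between the 2 starts are shown because both genes are transcribed from this stretch outward. They are printed on the plus strand with each CG pair in capitals; 6 such pairs were found in this window, at a GC content of 76.1%.
Between the starts of Larp7 and Zgrf1 (chr3:127553350-127553395): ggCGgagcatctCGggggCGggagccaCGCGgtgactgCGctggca

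In dorsal-lineage cells Zgrf1 was 11.9 CPM in wild-type, 11.3 CPM with nestin-Cre and 12.2 CPM with Emx1-Cre, and the log2 ratios were -0.06 (-0.39 to 0.27) and 0.04 (-0.27 to 0.36). In neurospheres its counts were 1579 and 1116 in wild-type and 1836, 1780 and 1756 in knockout libraries, with a log2 fold change of 0.38 (SE 0.16, adjusted p = 0.224 by edgeR's quasi-likelihood test). The knockout libraries lay above both wild-type libraries, which were far apart from each other. Mir302a to Mir302d and Mir367, genes of pluripotency-associated miRNAs in intron 8 on the opposite strand, had at most 10 counts in any neurosphere library and were not tested.

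Of the 23 other genes annotated within 500 kb of Larp7, 21 were in the neurosphere table and 11 were tested. None passed an adjusted p of 0.05 by edgeR's quasi-likelihood test. At an unadjusted p under 0.05, 2 were lower and 1 was higher, where 21.7% of all genes tested passed in either direction, and DESeq2 called 1 lower, where it called 5.87% of all genes lower. The median log2 fold change of the 11 genes was -0.27, beside 0.01 over all genes tested. Alpk1, a kinase of innate immunity and the gene that DESeq2 called, had 332 and 505 counts in wild-type and 282, 170 and 170 in knockout libraries, with a log2 fold change of -1.03 (SE 0.31, edgeR adjusted p = 0.152). Ank2, which encodes an ankyrin of the membrane skeleton, had a log2 fold change of -0.32 (SE 0.12, edgeR adjusted p = 0.203). In the P7 dorsal lineage Ank2 was 129 CPM in wild-type against 210 and 175 CPM with nestin-Cre and Emx1-Cre. Neurog2, a proneural transcription factor, was 116 CPM in the wild-type dorsal lineage, 79.6 CPM with nestin-Cre and 119 CPM with Emx1-Cre. Its ratios differed by cell type. In RGLs it was 48.9, 19.2 and 29.2 CPM in the same order, with log2 ratios of -1.34 (-1.88 to -0.83) and -0.74 (-1.18 to -0.30). In nIPCs it was 198, 188 and 223 CPM, and in neuroblasts 74.2, 44.8 and 65.3 CPM. The neurosphere levels of Neurog2, 1.69 and 6.07 CPM in wild-type, overlapped the 2.35, 1.13 and 0.636 CPM of the knockout libraries.

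Among the partners of LARP7, the inhibitor HEXIM1 had the largest difference at the RNA level in the P7 dorsal lineage. There, Hexim1 was 26.1 CPM in wild-type (308 UMIs), 59.1 CPM with nestin-Cre (933 UMIs) and 56.0 CPM with Emx1-Cre (962 UMIs), with log2 ratios of 1.18 (0.99 to 1.37) and 1.10 (0.92 to 1.29). It was the only 1 of the 6 measured genes of 7SK and P-TEFb that was at least 2-fold higher in either library, where 3.33% and 1.28% of genes with at least 100 UMIs were. Hexim2 had log2 ratios of 0.60 and 0.70, and the capping enzyme gene Mepce 0.47 and 0.27. The kinase gene Cdk9 had -0.69 (-0.85 to -0.53) and -0.37 (-0.52 to -0.22). Ccnt1 had 0.15 and 0.17 and Ccnt2 0.01 and -0.20. In gated microglia, Hexim1 was 31.2 CPM in wild-type, 52.9 CPM with nestin-Cre (log2 ratio 0.76, 0.13 to 1.43) and 45.2 CPM with Emx1-Cre (log2 ratio 0.54, -0.23 to 1.30). Whether the ratio of Hexim1 differs between microglia and the dorsal lineage was not tested, and the interval of nestin-Cre microglia reaches that of the dorsal lineage.

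In the neurospheres, Hexim1 counts were 4206 and 5135 in wild-type and 8068, 8027 and 7704 in knockout libraries, without overlap. Its log2 fold change was 0.74 (SE 0.10), and the adjusted p of 0.0857 by edgeR's quasi-likelihood test missed the threshold. Of the 6 tested genes of 7SK and P-TEFb, none was called by edgeR at an adjusted p of 0.05. At an unadjusted p under 0.05 by edgeR, 2 were lower and 2 higher, where 21.7% of all genes tested passed in either direction. DESeq2 called 1 lower and 2 higher, where it called 5.87% of 14697 genes lower and 4.95% higher. Ccnt2 had a log2 fold change of -0.51 (SE 0.10, edgeR adjusted p = 0.0952) and Mepce 0.37 (SE 0.09, edgeR adjusted p = 0.117). The median over the 6 genes was 0.04. Rn7sk, the gene of the 7SK RNA itself, had 18 and 8 counts in wild-type and 0, 4 and 0 in knockout libraries, and was below the filter.

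No other La-related gene was lower in the P7 dorsal lineage by more than its counting interval. In the P7 dorsal lineage the log2 ratios of Ssb, the La protein gene, were 0.01 (-0.05 to 0.07) with nestin-Cre and 0.08 (0.02 to 0.14) with Emx1-Cre, and those of Larp1, a regulator of ribosomal protein mRNAs, were 0.05 and 0.09. Larp1b had 0.28 and 0.27, Larp4 0.46 and 0.45, and Larp4b 0.28 and 0.30. Larp6 rested on few UMIs (14 in wild-type, 63 and 54 in the mutant libraries) and had 1.75 (0.90 to 2.70) and 1.41 (0.54 to 2.37). In neurospheres none of the 6 passed an adjusted p of 0.05 by edgeR, none was lower and 2 were higher at an unadjusted p under 0.05 (21.7% of all genes in either direction), and DESeq2 called 1 higher (4.95% of all genes). Larp1b, with 414 and 299 counts in wild-type and 658, 751 and 610 in knockout libraries, had a log2 fold change of 0.89 (SE 0.19, edgeR adjusted p = 0.105). The median of the 6 was 0.12.

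**Figure D5:**
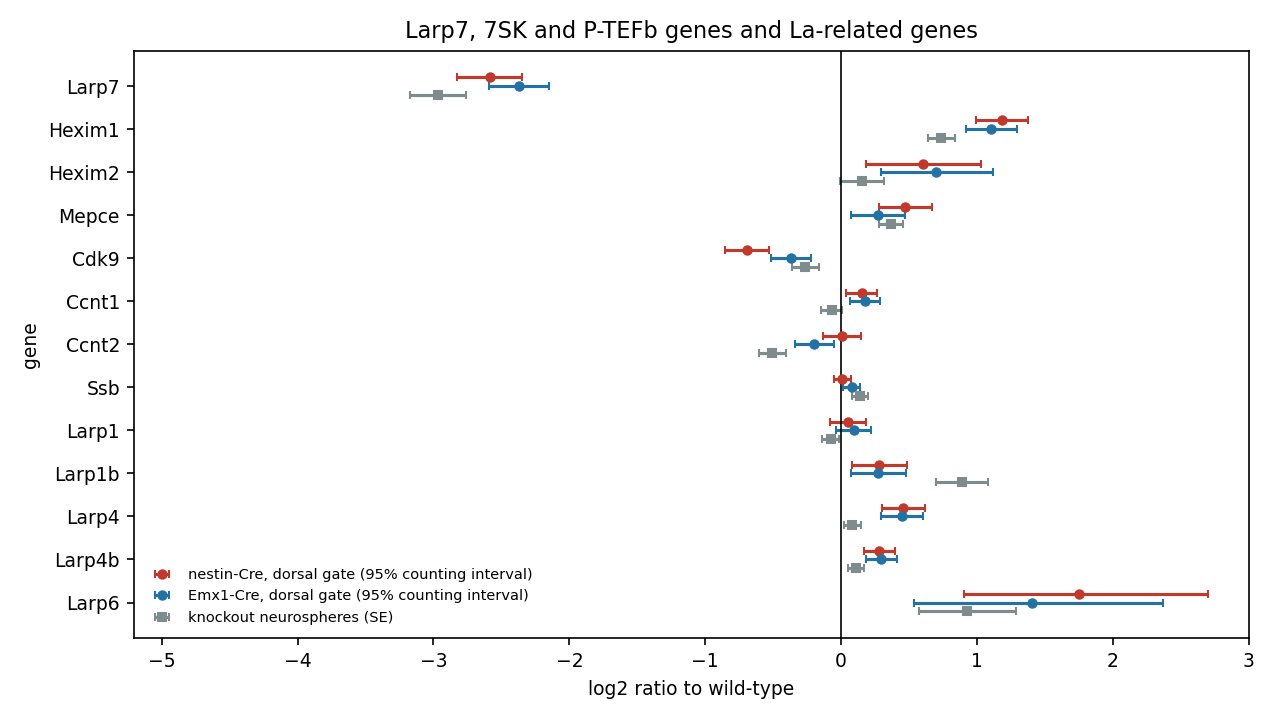
log2 ratio to wild-type of Larp7, of genes of 7SK and P-TEFb and of La-related genes in the P7 dorsal lineage with nestin-Cre (red) and Emx1-Cre (blue), with 95% counting intervals, and in knockout neurospheres (grey squares, with SE). Larp7 lies at -2.58, -2.37 and -2.97, and Hexim1 at 1.18, 1.10 and 0.74.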

How the data were processed

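For the 10x 3′ libraries the authors deposited raw UMI counts of each gene in each barcode, from Cell Ranger. For neurospheres they deposited whole-number counts per gene. The methods name Minimap2 and the Ensembl mouse transcriptome for RNA-seq reads, whereas the submitters' processing notes name featureCounts among their tools. Which of these gave the neurosphere counts could not be told. The Cell Ranger versions in the methods and in the file headers differ. The submitters' processing notes name the build mm10. The treatment of strand and of shared reads was not stated. The count table has 10 sample columns, of which 5 were used and 5, whose names match no sample, were not. ATAC-seq and CUT&Tag were not used here.

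Single cells with over 500 genes and a mitochondrial share of UMIs under 15% were gated on marker UMIs (at least 4 to 8 of a list from at least 2 or 3 genes; 1 for Gad1 and Gad2). Doublets were not called; cells that passed lists of several lineages were left out. CPM is summed Larp7 UMIs scaled to 1000000 summed UMIs. Leiden clusters were made with scanpy 1.11.5 (leidenalg 0.10.2, Python 3.11.15). Neurosphere counts were tested with edgeR 4.0.16 (R 4.3.3; TMM, quasi-likelihood, Benjamini-Hochberg); DESeq2 1.42.0 was an alternative. Pairs of libraries of 1 group had a chi-square of 20.1 to 66.1 for each degree of freedom, above counting noise. Entrez identifiers were matched to symbols for 39373 of 40814 genes by the GRCm38.p6 annotation, from which sequences and positions come.

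Named genes were Larp7, genes within 500 kb, La-related genes, 7SK and P-TEFb genes, the driver genes, the 5 closest in pattern and up to 5 of the largest falls in neurospheres among genes past the adjusted p of 0.05 without overlap, of which there were 3. The gene, lists and markers were chosen with earlier results of these data known. Gate sizes were set on marker counts after the files were seen. Steps were tested on simulated data. Alternatives were other gates, filters, depths, clusters, normalizations, tests, left-out replicates and a replicate block.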

Additional observations from a re-analysis of the deposited data

Results flagged for a closer look

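Larp7 in vessel cells was singled out because its point estimates ran in opposite directions. With nestin-Cre the log2 ratio to wild-type was 0.535 in the vessel gate, against -2.58 in the dorsal lineage and -0.376 in microglia, and with Emx1-Cre it was -0.000941 in the vessel gate. These differences between gates and between drivers were not tested, since each genotype has 1 library. The vessel value with nestin-Cre rests on 13 Larp7 UMIs in 40 cells, and its interval of -0.55 to 1.55 includes 0 and the values of microglia and of Emx1-Cre vessels, but not that of the dorsal lineage.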

How the results depend on the processing

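In the dorsal lineage, all 14 alternatives gave a log2 ratio within the counting interval, from -2.69 to -2.45 with nestin-Cre and from -2.40 to -2.24 with Emx1-Cre. Microglia (14 alternatives) ranged from -0.89 to -0.30 and from -0.74 to -0.16, and only Leiden clusters gave intervals without 0. Vessels (14 alternatives) ranged from -0.22 to 0.73 and from -0.44 to 0.63, with signs that changed. For nestin-Cre interneurons, which had 0 Larp7 UMIs, the upper limit of the log2 ratio was followed. It was 0.75, but 4.74 with the looser gate and 1.97 after thinning to 1500 UMIs. The GABAergic list gate added after seeing the data had 2 nestin-Cre UMIs and a log2 ratio of -3.14, with an upper limit of -0.65. The stricter gate left no interneuron value, and the looser gate none for Emx1-Cre. Sparse interneuron, vessel and granule neuron counts set the limit of this comparison.

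For neurosphere Larp7, leaving out a replicate gave log2 fold changes from -3.18 to -2.82. The edgeR adjusted p was 0.148, 0.0172 and 0.195 without knockout replicate 1, 2 and 3, and DESeq2 gave an adjusted p of 2.36e-39. With the replicate block the log2 fold change was -2.90 (edgeR adjusted p = 0.344). The labels tie same-numbered libraries by the number alone. The r of their deviations was -0.01 and 0.09. With 2 wild-type libraries the deviations mirror each other, so these values cannot show whether the libraries were paired. The count of genes called was 6, and 1591 with DESeq2, 3 without the filter on low counts, 0 with the replicate block, and 0 to 1905 with a replicate left out; the count of 1905 was without wild-type replicate 1, which leaves a lone wild-type library assumed to vary like the others, 1 without knockout replicate 1, and 0 without knockout replicate 3. At an unadjusted p under 0.05, edgeR called 3846 genes. The cause of these differences was not tested.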
